A study of Mus musculus with 2 samples.

Results

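The 9 genes described here encode parts of the light response of cones: Opn1sw, Gnat2, Gnb3, Gngt2, Pde6h, Cngb3, Arr3, Rcvrn and Pdc. They were taken by symbol from the 32285 genes of the count matrices, and each symbol matched 1 gene. Their transcripts were counted in single cells of mouse optic cups at E17.5, before birth. The cells came from 1 pooled library of Myrf humWT/humWT mice (humWT) and 1 pooled library of Myrf humdG/humdG mice (humdG). In both alleles the last mouse exon of Myrf, a membrane-bound transcription factor needed in the retinal pigment epithelium (RPE), was replaced by the human exon by CRISPR on a C57BL/6J background. The humdG allele also carries a C-terminal frameshift variant seen in patients, and homozygous humdG mice die before birth. According to the protocol in the labels, 3 eye cups were pooled for a library after cornea, lens and optic nerve were taken off, but that text names Myrf fl/fl and Rx>cre conditional mice. The study's methods instead state 3 mice for each genotype and a cornea left in place, so the dissection of these libraries is uncertain. Because each genotype was 1 library, no test between genotypes was possible and no p-value is given. The 95% intervals in parentheses reflect the error of counting molecules alone and leave out how embryos or preparations vary. The libraries count the 3′ ends of transcripts, so the level of each gene was compared between cells and between libraries. Where counts of different genes are summed or set side by side, they are counts as captured and do not rank the genes by expression.

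In cones, light changes the shape of an opsin, which activates the G protein transducin. Transducin releases the inhibitory subunit from a phosphodiesterase, cyclic GMP falls, and cyclic GMP-gated channels in the outer segment close. Arrestin helps to end the response, and calcium-binding proteins adjust it. Cones are born in the mouse retina before birth, well before they form outer segments and respond to light, and the transcription factors OTX2 and CRX drive many of their genes.

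The genes lie on 6 chromosomes of the mouse genome (GRCm38, GENCODE M21 annotation), and all are protein coding. Opn1sw, the short-wavelength opsin, is at chr6:29376671-29388468 on the minus strand. The cone transducin subunits are Gnat2 (α) at chr3:108092789-108101432, Gnb3 (β) at chr6:124834240-124840275 on the minus strand and Gngt2 (γ) at chr11:95837216-95845734. Pde6h, the inhibitory subunit of the cone phosphodiesterase, is at chr6:136923832-136968865. Cngb3, a subunit of the cone cyclic GMP-gated channel, is at chr4:19280850-19510623 and is the longest of the genes at 229774 bases. Arr3 (cone arrestin) is at chrX:100605497-100618493, and Rcvrn (recoverin, a calcium sensor that restrains opsin phosphorylation) is at chr11:67695326-67703333. Pdc (phosducin, which binds the βγ subunits of transducin) is at chr1:150319417-150333906. Exons of Opn1sw, Gngt2 and Pde6h overlap exons of Calu, Abi3 and Arhgdib on the opposite strand, by 397, 234 and 136 bases. Rcvrn lies inside Glp2r on the opposite strand, with no exon shared. On a member's own strand, the pseudogene Gm11877 lies within Cngb3 and Gm37764 within Pdc, neither sharing an exon with it. In the photoreceptor precursor-like cells described below, Calu was at 78.7 CPM (UMIs of the gene per 1000000 UMIs of the class) in humWT and 61.3 CPM in humdG, and Abi3 at 13.9 and 15.97 CPM.

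Promoter sequences of 5 of the 9 genes were found in the RefSeq table (GRCm38.p6), each from 250 bases before to 50 bases after the start listed there. For Opn1sw, Gnat2 and Pde6h this listed start lies inside the gene interval given above, not at its end. They were searched on both strands for the letters TAATCC, which read GGATTA on the other strand. These are core letters of sites that CRX and OTX proteins are known to bind. A second search used the related TAATCT, which reads AGATTA when reversed. The promoters of Opn1sw, Gnat2 and Arr3 held such letters, which are printed in capitals below because these genes are examples of an opsin, a transducin subunit and a shut-off protein. Those of Pdc and Pde6h were searched and held none. Gnb3, Gngt2, Cngb3 and Rcvrn had no entry.
Opn1sw, chr6:29380464-29380763, minus strand: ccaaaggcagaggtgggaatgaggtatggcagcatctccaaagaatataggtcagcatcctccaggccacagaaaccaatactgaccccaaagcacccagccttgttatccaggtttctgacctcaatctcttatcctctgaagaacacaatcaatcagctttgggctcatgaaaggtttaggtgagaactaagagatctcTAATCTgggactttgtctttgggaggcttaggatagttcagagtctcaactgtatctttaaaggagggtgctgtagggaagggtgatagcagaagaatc
Gnat2, chr3:108092816-108093115, plus strand: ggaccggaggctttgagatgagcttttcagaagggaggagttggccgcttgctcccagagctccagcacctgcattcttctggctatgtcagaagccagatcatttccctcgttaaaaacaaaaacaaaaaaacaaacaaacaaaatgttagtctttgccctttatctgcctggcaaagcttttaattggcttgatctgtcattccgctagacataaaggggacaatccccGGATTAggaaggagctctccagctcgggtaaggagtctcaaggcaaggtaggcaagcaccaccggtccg
Arr3, chrX:100605247-100605546, plus strand: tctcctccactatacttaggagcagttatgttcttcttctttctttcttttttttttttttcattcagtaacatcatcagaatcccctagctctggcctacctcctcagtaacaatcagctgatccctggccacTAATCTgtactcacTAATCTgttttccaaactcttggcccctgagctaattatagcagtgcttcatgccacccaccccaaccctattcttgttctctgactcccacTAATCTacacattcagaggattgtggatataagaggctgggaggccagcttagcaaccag
In Arr3, TAATCT stood 3 times, at 116, 102 and 10 bases before the listed start. In Opn1sw it stood 49 bases before the listed start, and in Gnat2 GGATTA stood 19 bases before it. Among all 32851 promoters of the table, 7.06% held TAATCC, 8.19% held TAATCT and 14.4% held at least 1 of both, on either strand. These matches describe letters and were not tested as binding sites.

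The deposited matrices held 17421 humWT and 19565 humdG barcodes, with 129135207 and 114319529 unique molecular identifiers (UMIs, each standing for 1 captured transcript) and medians of 3758 and 2572 UMIs. The medians of genes per barcode were 1418 in humWT and 1176 in humdG. A filter of more than 200 genes and under 15% mitochondrial UMIs left 17142 and 19302, and the filters used here left 16166 and 18173 cells. The limits of the former filter are those stated by the study. However, the paper reports fewer collected cells for both genotypes, with higher medians of genes per cell. The cells described here are therefore not the same set as those of the paper, and the reason was not tested. The libraries shared 102 cell barcodes, of which 2 humWT and 7 humdG cells lay in the photoreceptor precursor-like class, and without these cells the ratios of humdG to humWT for 8 genes ran from 0.408 to 1.26 in place of 0.406 to 1.25. In that class the female transcript Xist was at 25.2 CPM in humWT and 793 CPM in humdG cells. The Y-linked Ddx3y was at 45.5 and 23.2 CPM, so the sexes of the pooled embryos differed in their mix between the libraries. The gap in Xist was smaller in white blood cell-like cells, at 260 and 408 CPM. The part of sex in the ratios of humdG to humWT was not tested. Clusters left without a class name held 40.4% of the humWT and 62.2% of the humdG cells.

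Cells were clustered without the 9 genes and the other 28 phototransduction genes examined, and 1 of 23 clusters was photoreceptor precursor-like, a name given for all 8 markers fixed for it (Otx2, Crx, Prdm1, Neurod1, Thrb, Rxrg, Nrl and Nr2e3). It held 610 humWT and 806 humdG cells, 3.77% and 4.44% of the cells, at medians of 4585.5 and 5332 UMIs per cell. Its leading genes by fold included Gngt2, Cngb3, Pdc, Gnb3 and Opn1sw beside Fabp7, Neurod1, Prdm1 and Rbp3. Of all UMIs of the 9 genes, 63.6% (63.1 to 64.1) in humWT and 52.2% (51.7 to 52.6) in humdG lay in these cells. Their summed level was 4213 CPM (4157 to 4270) in humWT and 4594 CPM (4537 to 4652) in humdG cells. At least 1 UMI of the 9 genes was found in 93.9% of the humWT and 95.04% of the humdG cells. After every cell was thinned to 1000 UMIs, leaving out 1 shallower humdG cell, these shares were 79.7% and 82.8%.

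Red blood cells should lack these genes. The red blood cell-like class (485 humWT and 241 humdG cells, medians of 4175 and 4214 UMIs) therefore served as the measure of background counts. Whether these counts came from free RNA was not tested. The 9 genes summed to 84.4 CPM (72.7 to 97.4) there in humWT and 163 CPM (140 to 189) in humdG cells. At least 1 of their UMIs was found in 29.1% and 50.2% of these cells, and in 9.40% and 17.4% after thinning. The photoreceptor precursor-like level was thus 49.9-fold (43.3 to 58.0) the red blood cell-like level in humWT and 28.1-fold (24.3 to 32.8) in humdG. Other classes lay on both sides of that level, for example 1.75-fold in humWT blood vessel-like and 0.465-fold in humWT mesenchyme-like cells. Classes also differed in depth, with medians of 4479 UMIs in these blood vessel-like and 15693.5 in these mesenchyme-like cells. The part of depth in the ratios to the red blood cell-like level was not tested. A ratio above or below 1 therefore does not by itself show that a class expresses or lacks the genes.

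**Figure D1:**
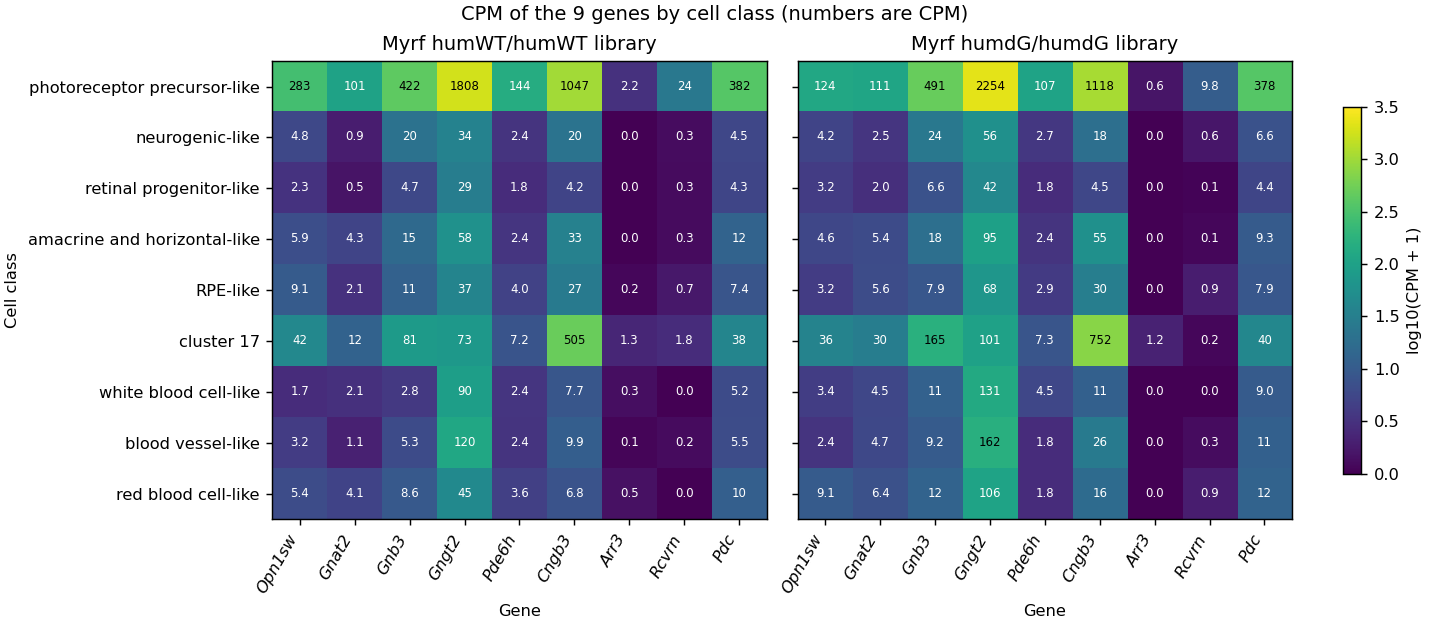
Level of each of the 9 genes (columns, CPM printed in each field, colour on a log10(CPM + 1) scale) in 9 groups of cells (rows) of the humWT library (left) and the humdG library (right). The photoreceptor precursor-like row is the brightest for all 9 genes in humWT and for 8 in humdG, where Arr3 was at 0.557 CPM against 1.16 CPM in cluster 17, and cluster 17 stands out for Cngb3 (505 and 752 CPM).

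Set against all other cells, the photoreceptor precursor-like class was at least 2-fold higher for 8 of the 9 genes in humWT and for 7 of the 8 with enough counts in humdG, with 10 CPM added to both levels. Over all genes compared this way, 2.73% of 19537 in humWT and 2.31% of 19240 in humdG were at least 2-fold higher. Gngt2 held rank 2 of all genes in both libraries by this ratio, Cngb3 ranks 3 and 4, Gnb3 4 and 5, and Pdc 5 and 3. Opn1sw held rank 6 in humWT and 26 in humdG. These ranks are a description, since the cells were chosen by clustering.

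Opn1sw is the opsin of the 9 genes. It was at 283 CPM (268 to 298) in humWT and 124 CPM (115 to 134) in humdG cells of the class, from 1424 and 668 UMIs. A UMI was found in 33.6% of the humWT and 18.9% of the humdG cells, and in 15.4% and 7.39% after thinning. In red blood cell-like cells it was at 5.41 and 9.13 CPM, with a UMI in 2.47% and 2.90% of the cells. The second cone opsin, Opn1mw, which mouse cones gain after birth, had no UMI in the class in either library, where 3 UMIs would be 0.596 and 0.557 CPM.

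All 3 subunits of cone transducin were present. The α subunit Gnat2 was at 101 CPM (92.7 to 111) in humWT and 111 CPM (103 to 121) in humdG cells, with a UMI in 183 of 610 humWT and 292 of 806 humdG cells. The β subunit Gnb3 was at 422 CPM (404 to 440) and 491 CPM (472 to 510), with a UMI in 68.0% and 72.0%. The γ subunit Gngt2 was at 1808 CPM (1771 to 1845) and 2254 CPM (2215 to 2295), with a UMI in 62.8% and 78.0%. Each stood above the red blood cell-like level of its library, which was 4.06 and 6.39 CPM for Gnat2, 8.57 and 11.9 CPM for Gnb3 and 45.1 and 106 CPM for Gngt2. A Gngt2 UMI was also found in 17.1% of the humWT and 39.4% of the humdG red blood cell-like cells. After thinning, these shares were 5.27% and 12.2%, against 39.8% and 56.0% of the photoreceptor precursor-like cells. Where the Gngt2 UMIs of red blood cell-like cells came from was not tested.

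Between transducin and the channel, UMIs of Pde6h lay in few cells and those of Cngb3 in most. Pde6h was at 144 CPM (134 to 155) in humWT and 107 CPM (98.8 to 116) in humdG cells, and 14.3% and 16.4% of the cells held a UMI of it. The 10 cells with the most Pde6h UMIs held 43.9% of them in humWT and 33.2% in humdG. Cngb3 was at 1047 CPM (1019 to 1076) and 1118 CPM (1090 to 1146) and had a UMI in 80.2% and 81.1% of the cells. Its 10 highest cells held 17.55% and 9.82% of its UMIs. In red blood cell-like cells Cngb3 was at 6.77 and 15.5 CPM and Pde6h at 3.61 and 1.83 CPM.

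Arr3 and Rcvrn were counted in few cells. Arr3 had 11 UMIs in 9 humWT cells and 3 UMIs in 3 humdG cells of the class, or 2.19 CPM (1.09 to 3.91) and 0.557 CPM (0.115 to 1.63). Red blood cell-like cells had 1 Arr3 UMI in humWT (0.451 CPM, 0.0114 to 2.51) and none in humdG, which allows up to 2.74 CPM, so these few counts do not tell the class from red blood cell-like cells. All other cells together had 11 Arr3 UMIs in humWT (0.0957 CPM) and 13 in humdG (0.127 CPM). Rcvrn was at 24.2 CPM (20.1 to 28.9) and 9.84 CPM (7.37 to 12.9), from 122 UMIs in 38 humWT cells and 53 UMIs in 25 humdG cells. The 10 highest cells held 62.3% and 67.9% of the Rcvrn UMIs, and red blood cell-like cells had 0 and 1. Pdc was at 382 CPM (365 to 399) and 378 CPM (362 to 395), with a UMI in 42.6% and 44.2% of the cells, against 10.4 and 11.9 CPM in red blood cell-like cells.

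**Figure D2:**
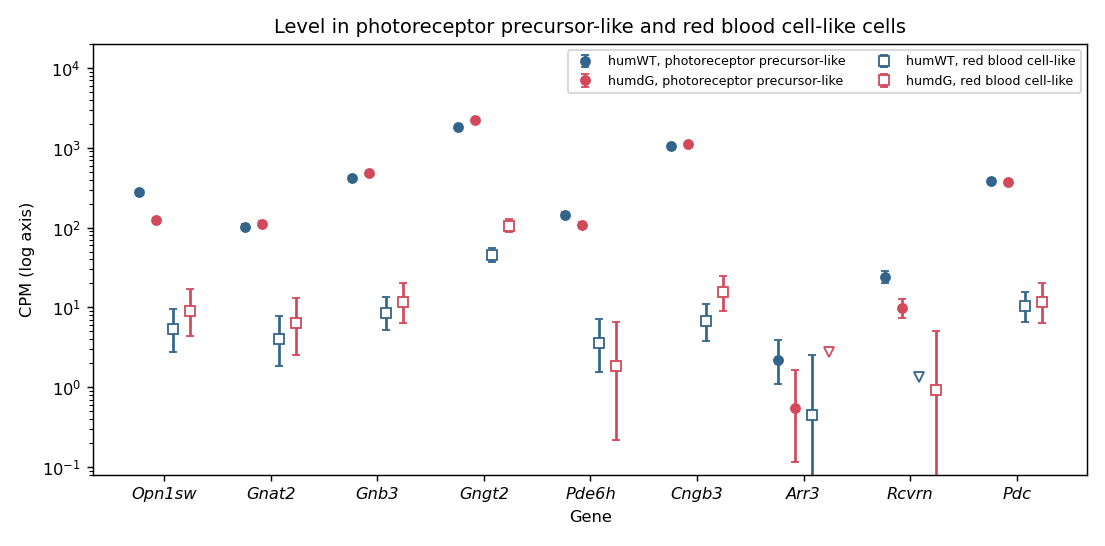
Level (CPM, log axis) of each of the 9 genes in photoreceptor precursor-like cells (filled circles) and red blood cell-like cells (open squares) of the humWT (blue) and humdG (red) libraries, with 95% counting intervals and open triangles at the level of 3 UMIs where none was found. For 8 genes in each library the interval of the photoreceptor precursor-like cells lies above the interval or triangle of the red blood cell-like cells. For Arr3 the intervals overlap in humWT, and in humdG the triangle lies above the interval of the photoreceptor precursor-like cells.

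Of the other cone genes, Pde6c, the catalytic subunit of the cone phosphodiesterase, was at 78.5 CPM in humWT and 94.7 CPM in humdG cells. Cnga3, the channel subunit that pairs with Cngb3, was at 27.6 and 24.5 CPM. Rod counterparts of 6 of the genes are given beside them. The rod transducin α subunit Gnat1 had 0 UMIs in humWT and 1 in humdG. Gnb1, the β subunit of rod transducin but expressed in many tissues, was at 168 and 133 CPM, or 2.15-fold and 2.05-fold its red blood cell-like level. It was higher still in neurogenic-like (207 and 180 CPM) and amacrine and horizontal-like cells (253 and 233 CPM). The rod γ subunit Gngt1 was at 114 and 77.1 CPM, and Pde6g, the inhibitory subunit of the rod phosphodiesterase, at 83.5 and 61.1 CPM. The rod channel subunit Cngb1 had 8 and 4 UMIs. Sag, the rod arrestin, was at 44.9 CPM (39.2 to 51.2) and 12.1 CPM (9.32 to 15.4). The counting intervals of Gnb1, Gngt1, Pde6g and Sag did not overlap between the libraries.

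**Figure D3:**
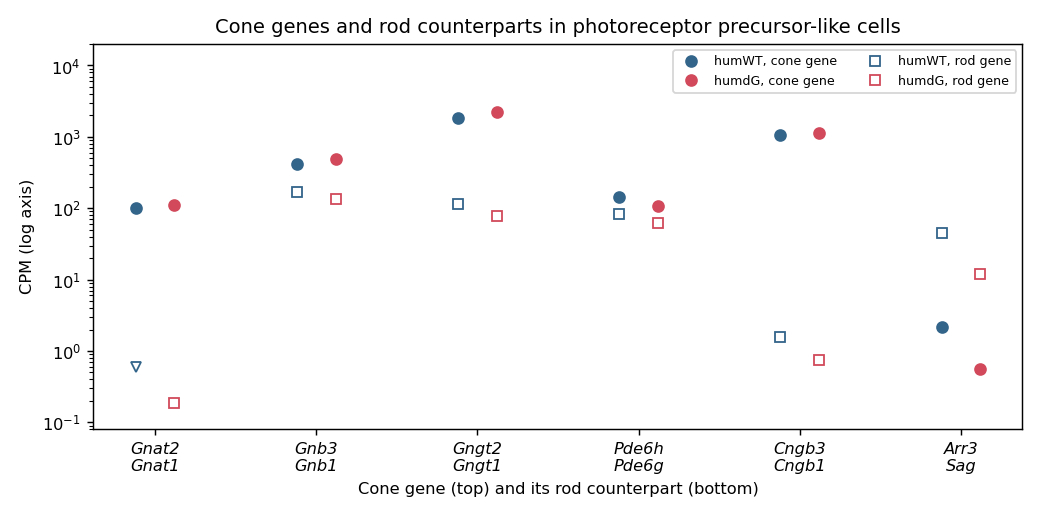
Level (CPM, log axis) in photoreceptor precursor-like cells of 6 cone genes (filled circles) and of the rod counterpart named under each (open squares), in humWT (blue) and humdG (red), with open triangles at the level of 3 UMIs where none was found. Each gene is to be read between the libraries; Gnat1 had at most 1 UMI, and Sag was at 44.9 CPM in humWT and 12.1 CPM in humdG.

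Among 18 further phototransduction and outer segment genes, 9 in humWT and 8 in humdG were at 5 CPM or more in the class. Among the 21026 genes counted 20 times or more in all cells together, 11399 and 11233 were. The 9 were Unc119 (381 and 463 CPM), which carries lipid-modified transducin, the disc rim genes Rom1 (168 and 128 CPM) and Prph2 (60.8 and 42.7 CPM), the exchanger Slc24a2 (84.0 and 86.6 CPM), the genes of the transducin shut-off complex Rgs9 (83.9 and 75.8 CPM), Gnb5 (50.5 and 54.2 CPM) and Rgs9bp (5.56 and 2.97 CPM), the phosphodiesterase chaperone Aipl1 (52.9 and 52.6 CPM) and the potassium channel subunit Kcnv2 (8.54 and 7.24 CPM). The other 9, Pde6a, Pde6b, Cnga1, Grk1, Guca1a, Guca1b, Gucy2e, Gucy2f and Slc24a1, had 0 to 24 UMIs each in either library. They include the rod phosphodiesterase catalytic subunits, the opsin kinase and the guanylate cyclases with their activators.

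Outside the class, cluster 17 was above the red blood cell-like level for most members. This cluster (164 humWT and 203 humdG cells, medians of 9727 and 11052 UMIs) carried raised markers of amacrine and horizontal cells (7) and of photoreceptor precursors (5). It was left unnamed because none of the 7 was among its 20 leading genes. Its 9 genes summed to 760 CPM (724 to 797) in humWT and 1132 CPM (1105 to 1159) in humdG cells, and it held 5.09% and 14.4% of their UMIs. Cngb3 was at 505 CPM (476 to 535) and 752 CPM (730 to 774) there and made up 66.5% and 66.4% of the summed UMIs, against 24.9% and 24.3% in the photoreceptor precursor-like class. Gnb3 was at 80.7 and 165 CPM there, Opn1sw at 41.7 and 35.5 CPM, Pdc at 38.1 and 40.5 CPM and Gnat2 at 11.6 and 29.5 CPM, each above its red blood cell-like level beyond counting error in both libraries. In contrast, Gngt2, at 72.6 and 101 CPM, was 1.61-fold (1.25 to 2.09) its red blood cell-like level in humWT and 0.956-fold (0.783 to 1.18) in humdG. The other cone genes Pde6c and Cnga3 were at 37.2 and 15.2 CPM there in humWT and at 81.8 and 27.1 CPM in humdG. In humdG, Cnga3 was thus no lower there than in the photoreceptor precursor-like class (24.5 CPM). Whether cluster 17 holds doublets was not tested.

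Among blood and vessel cells, Gngt2 was highest in blood vessel-like cells. It was at 120 CPM (112 to 128) in humWT and 162 CPM (148 to 176) in humdG blood vessel-like cells and made up 81.1% and 74.4% of the summed UMIs of the 9 genes there. This was 2.65-fold (2.16 to 3.30) and 1.53-fold (1.25 to 1.88) the red blood cell-like level. In white blood cell-like cells Gngt2 was at 89.6 and 131 CPM, 1.99-fold (1.57 to 2.53) and 1.23-fold (0.984 to 1.56) that level. The other 8 genes were between 0 and 26.3 CPM in both classes.

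In other neural cells, 2 members exceeded the red blood cell-like level in both libraries. Gnb3 in neurogenic-like cells, which express Atoh7 and Neurog2, was at 19.8 and 24.0 CPM, 2.31-fold (1.37 to 4.07) and 2.03-fold (1.15 to 3.89) that level. Cngb3 in amacrine and horizontal-like cells was at 33.1 and 55.5 CPM, 4.89-fold (2.85 to 8.99) and 3.58-fold (2.203 to 6.204). Outside neural cells, the interval of the ratio to that level lay above 1 for Cngb3 in both libraries in RPE-like cells (26.7 and 30.2 CPM), muscle-like cells (23.4 and 29.3 CPM) and surface epithelium-like cells (20.4 and 30.6 CPM), and in humdG alone in cartilage-like cells (12.2 and 53.0 CPM) and blood vessel-like cells (9.95 and 26.3 CPM). In retinal progenitor-like cells, which were deeper (medians of 12068 and 11609 UMIs), the 9 genes summed to 47.3 and 64.7 CPM. This was below the red blood cell-like sum in both libraries. The sum was higher in humdG than in humWT in each of the 13 named classes, by 1.09-fold in photoreceptor precursor-like cells, 1.94-fold (1.57 to 2.39) in red blood cell-like cells and 1.28-fold to 2.45-fold in the other 11. In the unnamed cluster 18 it was lower in humdG, at 0.776 (0.603 to 0.987) of its humWT value. In cluster 0, the largest unnamed cluster (3547 and 7757 cells at medians of 2284 and 1659 UMIs), the sum was 208 and 425 CPM. This was 2.47-fold (2.12 to 2.89) and 2.60-fold (2.24 to 3.03) the red blood cell-like sum, and the cluster held 5.44% and 12.9% of the UMIs of the 9 genes. Its raised markers included Sncg and Stmn2 of the ganglion cell list, in a tie with 2 of the muscle list. No cluster was named as ganglion cells.

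Single cells of the class held different subsets of the 9 genes. The median number of members with a UMI was 3 in both libraries, and 37 humWT and 40 humdG cells had none, while 1 humWT and 0 humdG cells had all 9. At least 3 members were found in 63.9% (59.98 to 67.8) of the humWT and 69.5% (66.2 to 72.6) of the humdG cells, and at least 5 in 26.9% and 28.8%. Thinned to 1000 UMIs, 24.4% and 29.5% had at least 3. Among thinned cells, on average over 100 draws, only 29.3 humWT and 44.7 humdG cells had a Pde6h UMI. Of these, 43.6% and 24.7% had one of Opn1sw, against 13.9% and 6.47% of the cells without Pde6h. A Gngt2 UMI was found in 83.0% and 86.1% of the cells with Pde6h, against 37.5% and 54.1% of those without. Cells with a Pdc UMI had one of Gngt2 in 69.9% and 82.5%, against 32.9% and 49.2%. For Gngt2 and Cngb3 no such gap was seen in humWT, where 52.8% of the cells with Gngt2 and 53.3% of those without had Cngb3. In humdG these shares were 59.3% and 46.3%. The levels of Pde6h, Gngt2 and Pdc were higher in deeper cells, as given below, and the part of this in the gaps was not tested.

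The members followed the cone and rod fate genes unequally. Thrb and Rxrg mark cone precursors, and a UMI of either was found in 333 humWT and 516 humdG cells of the class, which were also deeper (medians of 5439 and 6505.5 UMIs) than the others (3916 and 3581.5). Every cell was then thinned to 1000 UMIs and sorted again by its thinned counts. On average over 100 draws, 150 of 610 humWT and 259 of 805 humdG cells had a UMI of either gene. The others then included cells whose Thrb or Rxrg UMIs were lost in thinning. Thinned cells with either gene had 2.43-fold and 2.23-fold the Opn1sw level of the others, from 499 against 206 CPM in humWT and 190 against 84.9 CPM in humdG. Pde6h was 2.70-fold and 3.01-fold higher there, Gnat2 2.10-fold and 1.60-fold, Cngb3 1.85-fold and 1.65-fold and Gnb3 1.36-fold and 1.32-fold. For Gngt2, at 1.07-fold and 1.18-fold, and Pdc, at 1.03-fold and 1.20-fold, the central 95% of the draws spanned 1 in both libraries, as they did for Gnb3 (0.938 to 1.87) and Pde6h (0.999 to 5.30) in humWT. The draws thin the same cells again, so their ranges show the spread of thinning and not differences between cells or embryos. Without thinning the ratios were larger, for example 5.49-fold (4.48 to 6.79) and 5.86-fold (4.27 to 8.24) for Opn1sw and 24.9-fold (14.1 to 48.3) and 19.7-fold (10.9 to 39.8) for Pde6h.

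Nrl and Nr2e3 mark rod precursors. A UMI of either was found in 224 humWT and 217 humdG cells of the class, and in means of 94.6 and 68.2 cells after thinning. Before thinning, these cells were also deeper (medians of 6702.5 and 7491 UMIs) than the others (4051 and 4046). Some members differed with the depth of the cell, as given below, and the part of this in the thinned ratios was not tested. Thinned cells with a UMI of either had 4.58-fold and 3.20-fold the Pdc level of the others, from 883 against 193 CPM in humWT and 864 against 270 CPM in humdG, and 2.55-fold and 2.07-fold the Gngt2 level. Gnb3, which was also higher with Thrb or Rxrg, was at 1.24-fold and 1.51-fold, and the central 95% of the draws spanned 1 in humWT and ran from 1.06 to 2.02 in humdG. In contrast, Pde6h was at 0.592 and 0.296 of the level of the others, Cngb3 at 0.662 and 0.877, Gnat2 at 0.580 and 0.898, and Opn1sw at 1.02 and 0.882. Of these 4, the central 95% of the draws lay below 1 for Pde6h in humdG (0 to 0.909) and Cngb3 in humWT (0.509 to 0.812) and spanned it otherwise. The humdG value of Pde6h rested on a mean of 1.74 UMIs in the cells with Nrl or Nr2e3. Pdc and recoverin serve rods as well as cones in the adult retina. Without thinning, Pdc was 2.96-fold (2.64 to 3.31) and 2.07-fold (1.89 to 2.26) higher in cells with Nrl or Nr2e3, and Cngb3 was at 0.705 (0.667 to 0.744) and 0.771 (0.729 to 0.815), while Pde6h was at 1.10 (0.947 to 1.28) in humWT and 0.330 (0.261 to 0.413) in humdG.

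**Figure D4:**
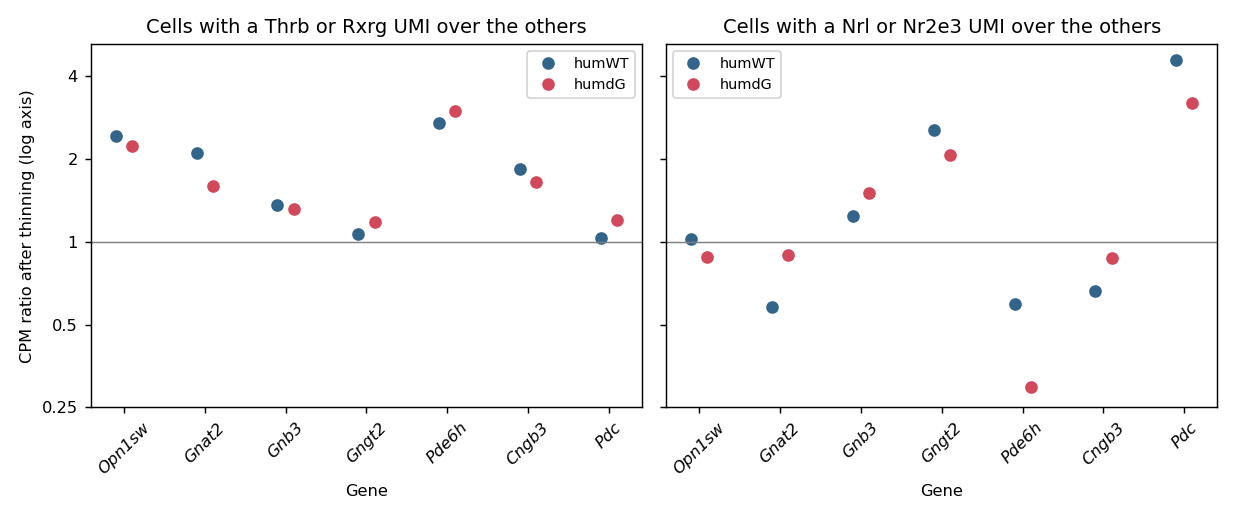
Ratio of the level in cells with a UMI of Thrb or Rxrg (left) or of Nrl or Nr2e3 (right) to the level in the other photoreceptor precursor-like cells (log axis, mean over 100 thinnings to 1000 UMIs per cell), for 7 genes in humWT (blue) and humdG (red). Cells were sorted after thinning. All 7 genes lie above 1 on the left, with Gngt2 and Pdc nearest to 1, at 1.07 and 1.03 in humWT and 1.18 and 1.20 in humdG. Gngt2 and Pdc are the highest on the right, at 2.55 and 4.58 in humWT. Arr3 and Rcvrn are left out for too few UMIs.

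Members also differed with the depth of the cell. Cells of the class with 8000 or more UMIs had 9.04-fold (7.79 to 10.5) the Gngt2 level of cells under 4000 UMIs in humWT and 4.62-fold (4.202 to 5.095) in humdG. Pde6h was 17.2-fold (8.98 to 37.7) and 5.41-fold (3.45 to 8.97) higher in the deep cells, and Pdc 3.18-fold (2.60 to 3.93) and 2.66-fold (2.21 to 3.23). Cngb3 was at 0.783 (0.726 to 0.846) and 0.903 (0.841 to 0.971) of its level in the shallow cells. The depth bands also differed in median mitochondrial share, 3.52% in the shallow and 6.99% in the deep humWT cells, 4.59% and 5.26% in humdG, and the part of these in the ratios was not tested.

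Between the libraries, 2 of the 8 genes with at least 20 UMIs were lower in humdG than in humWT by over 2-fold in the photoreceptor precursor-like class. Opn1sw, at 124 against 283 CPM, was at 0.439 (0.399 to 0.481) of its humWT level, and Rcvrn, at 9.84 against 24.2 CPM, at 0.406 (0.288 to 0.565). None of the 8 was 2-fold higher, and 6 lay within 2-fold. Arr3, at 0.557 against 2.19 CPM, had too few UMIs (3 and 11) for a ratio to be read. Over all 13513 genes with at least 20 UMIs, 1.95% were at least 2-fold higher and 5.25% at least 2-fold lower in humdG, and the median log2 ratio was 0.02, with quartiles of -0.23 and 0.22. Pde6h was at 0.746 (0.668 to 0.834) and Pdc at 0.990 (0.930 to 1.05). Gnat2 was at 1.10 (0.976 to 1.24), Cngb3 at 1.07 (1.03 to 1.11), Gnb3 at 1.16 (1.10 to 1.23) and Gngt2 at 1.25 (1.21 to 1.28), and the summed level at 1.09 (1.07 to 1.11). With the libraries merged without integration, the log2 ratio of the summed level turned from 0.12 to -0.47, and those of Gngt2 (-0.52), Gnat2 (-0.41), Gnb3 (-0.26) and Cngb3 (-0.13) also fell below 0, while Pdc was at -0.80 and Pde6h at -1.20, past 2-fold. How far embryos of a genotype differ from each other in these levels was not measured.

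The depth of the cells differed between the libraries, and the ratios differed with depth. In humWT, 23 cells over 32000 UMIs (3.77% of the class) held 26.8% of its UMIs, and in humdG 5 such cells (0.620%) held 4.37%. Opn1sw was lower in humdG in every depth band, at 0.535 (0.403 to 0.706) under 4000 UMIs, 0.515 (0.441 to 0.600) at 4000 to under 8000 and 0.369 (0.323 to 0.421) at 8000 or more. Rcvrn turned, from 3.33 (1.42 to 9.02; 7 humWT and 28 humdG UMIs) at 4000 to under 8000 UMIs to 0.205 (0.1247 to 0.322) at 8000 or more. Pde6h turned as well, from 1.67 (1.31 to 2.15) to 0.589 (0.515 to 0.672) in the same bands. Gngt2 was at 2.11 (1.77 to 2.52), 1.63 (1.56 to 1.72) and 1.08 (1.04 to 1.12) from the shallow to the deep cells. Without the 10 cells that held most of each gene in each library, Opn1sw was at 0.401 (0.358 to 0.448) and Rcvrn at 0.327 (0.176 to 0.581). Rcvrn UMIs lay in 38 humWT and 25 humdG cells, so this took a larger part of the humdG cells. Without the cells over 32000 UMIs, Opn1sw was at 0.421 (0.382 to 0.464) and Rcvrn at 0.499 (0.345 to 0.718), close to the 2-fold limit. Pde6h was then at 0.847 (0.748 to 0.959) and Cngb3 at 1.02 (0.984 to 1.07).

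**Figure D5:**
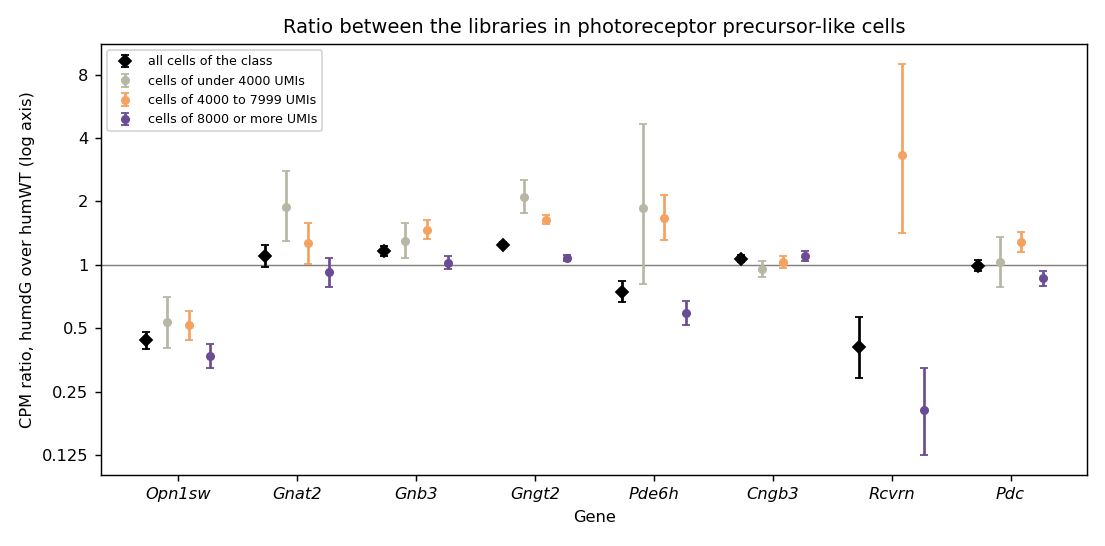
Ratio of the humdG to the humWT level (log axis, 95% counting intervals) of 8 genes in photoreceptor precursor-like cells, for all cells (black diamonds) and for cells of under 4000, 4000 to under 8000 and 8000 or more UMIs (coloured circles). Opn1sw lies below 1 in all of them (0.369 to 0.535), while Pde6h and Rcvrn lie above 1 at 4000 to under 8000 UMIs and below 1 at 8000 or more.

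Genes of the same cells that were no members moved in both directions between the libraries. The rod gene Sag was at 0.269 (0.201 to 0.356) of its humWT level in humdG, Nr2e3 at 0.283 (0.247 to 0.323) and Nrl at 0.676 (0.589 to 0.775). Gngt1, Pde6g, Prph2 and Rom1 were at 0.678, 0.732, 0.703 and 0.760. The early fate genes lay above 1, with Thrb at 1.35 (1.26 to 1.44), Rxrg at 1.32, Neurod1 at 1.31, Otx2 at 1.25, Crx at 1.23 and Prdm1 at 1.22, as did Pde6c at 1.21 (1.06 to 1.38) and Unc119 at 1.21 (1.14 to 1.29). Myrf itself had 25 humWT and 18 humdG UMIs in the class, 4.97 and 3.34 CPM. In red blood cell-like cells it was at 6.77 and 2.74 CPM, so its level in the class did not stand out from theirs. The counts do not tell the alleles apart.

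Across clusters, the genes whose level was most like the summed level of the 9 were Ubap1l (Pearson's r = 0.948), Rbp3 (0.941), Rxrg (0.938), Impg2 (0.928) and Crx (0.925). The correlation was taken over 42 points, 21 clusters in each of both libraries, on log2(CPM + 10), among 17325 genes other than the 9 and the further phototransduction genes. Points of a library share its depth and background counts, so r is a description. Rbp3 and Impg2, which encode proteins of the matrix around photoreceptor outer segments, were at 220 and 143 CPM in humWT and 240.4 and 153 CPM in humdG cells of the class. Rod genes reached from r = 0.0233 for Gnb1 to 0.871 for Gngt1.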

How the data were processed

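The deposited matrices hold raw UMI counts for each gene and barcode, which the authors made from the reads (the submitters' processing notes name Cell Ranger 7.1.0, Seurat 4.1.1 and mm10). Whether intronic reads were counted is not given in the sources used here. Barcodes were kept at over 500 genes and a mitochondrial share below 15%. Scrublet (scanpy 1.11.5) called 1 and 0 doublets, and the highest-scoring 5% of each library were dropped instead. Cells were clustered in Seurat 5.3.0 (R 4.3.3, 2000 variable genes, canonical correlation over 20 dimensions, resolution 0.5). Clusters were named from at least 3 markers raised 2-fold in at least 10% of cells. At least 1 of these markers also had to be among the 20 leading genes of the cluster by fold. Levels are summed UMIs as CPM of the class total, with exact Poisson, Clopper-Pearson and conditional binomial intervals (scipy 1.17.1), and a count of 0 is given a limit of 3 UMIs. Ratios between libraries needed 20 UMIs. Thinned levels were computed for each cell at 1000 UMIs. Scripts were tested on simulated counts. The genes and lists were chosen with earlier results of these data known. The text names the 9 genes, rod and cone counterparts, listed genes at 5 CPM or more, fate genes and the 5 genes most alike. Depth bands and the removal of cells over 32000 UMIs were chosen after seeing the data. The alternatives were another resolution, merging in place of integration, clustering with the phototransduction genes, no doublet removal, over 200 genes, under 10% mitochondrial UMIs, a marker gate (Crx and at least 2 of 5 other fate genes), thinning, subtraction of the red blood cell-like level, edgeR 4.0.16 and median-of-ratios scaling, and a lower count limit.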

Additional observations from a re-analysis of the deposited data

How the results depend on the processing

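No paired analysis was possible because each genotype was 1 library. The ratio of humdG to humWT for Opn1sw stayed below 1 under all 15 alternatives (log2 ratio -1.72 to -0.90). That of the summed level of the 9 genes (log2 0.12) turned to -0.47 with libraries merged without integration and to -0.028 in cells of 8000 UMIs or more, and was 0.19 without doublet removal, 0.26 under 10% mitochondrial UMIs, 0.0078 with the marker gate, 0.17 after thinning, 0.17 in cells under 4000 UMIs and 0.41 at 4000 to under 8000. Single genes also turned: Gnat2 (-0.41), Gnb3 (-0.26), Gngt2 (-0.52) and Cngb3 (-0.13) in merged libraries, where Pde6h was at -1.20, Gnat2 in cells of 8000 UMIs or more (-0.12), Gngt2 with the gate (-0.045), Cngb3 (-0.081) and Pde6h (0.017) after thinning, Cngb3 (-0.065) and Pde6h (0.90) under 4000 UMIs, and Pde6h (0.74) and Rcvrn (1.73) at 4000 to under 8000. Pdc (-0.014) ran from -0.80 in merged libraries to 0.36 and kept its sign under 8 of 15. The summed level moved in humWT and humdG from 4213 and 4594 CPM to 3912 and 2815 CPM in merged libraries, 4141 and 4448 CPM with all variable genes used, 4005 and 4362 CPM at over 200 genes, 2113 and 2124 CPM with the gate, 3564 and 4007 CPM after thinning, 4129 and 4431 CPM after subtraction, and in humdG alone to 4750 CPM without doublet removal and 4972 CPM under 10% mitochondrial UMIs. The share of their UMIs in the class moved to 66.5% and 66.1% in merged libraries, 64.8% and 53.7% with all variable genes, 62.0% and 51.0% without doublet removal and 59.5% and 49.8% under 10% mitochondrial UMIs, to 64.3% in humWT at over 200 genes and to 63.7% in humdG with the gate. The log2 ratio between cells with Thrb or Rxrg and the others (1.02 and 0.89) stayed above 0 and moved to 0.96 and 0.12 in merged libraries, 0.84 and 0.74 without doublet removal, 1.14 and 1.05 at over 200 genes, 0.90 and 0.66 with the gate, 0.58 and 0.46 after thinning, and 0.84 in humdG under 10% mitochondrial UMIs. Genes at least 2-fold higher in humdG numbered 263, against 2215 in merged libraries, 1113 with the gate and 809 with at least 1 UMI in each library, and genes at least 2-fold lower 710, against 207 merged and 1825. The cause of these moves was not tested. Scaling moved all log2 ratios by -0.01 or 0.01. Arr3, with 14 UMIs, allowed no ratio.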
